A study of Mus musculus with 24 samples.

Results

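The genes described here are 10 acute phase reactants and metallothioneins of the mouse: the serum amyloid A genes Saa1, Saa2 and Saa3, the orosomucoid genes Orm1, Orm2 and Orm3, haptoglobin (Hp), lipocalin 2 (Lcn2) and the metallothionein genes Mt1 and Mt2. They were taken by gene symbol, and all 10 were found among the 15323 genes of the expression table. Polyadenylated RNA was sequenced from the median lobe of the liver and the left ventricle of the heart of 10-week-old males of 4 genotypes. NZB:C57 mice had the nuclear genome of NZB mice and the mitochondrial DNA (mtDNA) of C57 mice, and NZB:NZB mice, the NZB parental strain, had both genomes of NZB. BL/6J:NZB mice had the nuclear genome of C57BL/6 mice, written BL/6J in the library titles, and the mtDNA of NZB mice, and BL/6J:C57 mice, the C57BL/6 parental strain, had both genomes of C57BL/6. NZB:C57 and BL/6J:NZB are conplastic lines, made by 10 generations of backcrossing to place the mtDNA of one strain beside the nuclear genome of the other. RNA of 12 males per genotype was mixed in equal parts into 3 pools of 4 animals, so every value below is that of a pool, n is 3 pools per genotype and tissue, and a single affected animal cannot be told apart from a change in all 4 animals of a pool.

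The acute phase response is the change in the plasma proteins made by the liver during infection, injury or other inflammation. Interleukin-6 acts on hepatocytes through STAT3, and interleukin-1 through NF-kappaB and C/EBP factors, and together they raise the transcription of the positive acute phase genes while albumin, transthyretin and other negative acute phase genes fall. Saa1 and Saa2 encode apolipoproteins that join high-density lipoprotein, Saa3 encodes an amyloid made mostly outside hepatocytes, the orosomucoids bind lipophilic ligands in plasma, haptoglobin binds free haemoglobin, and lipocalin 2 binds bacterial siderophores. Metallothioneins are small cysteine-rich proteins that bind zinc and copper, and their genes respond to zinc through the factor MTF1, to glucocorticoids and to inflammatory signals.

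The genes lie in clusters that bear on how reads were assigned. On GRCm38 with GENCODE vM21, Saa3 (chromosome 7, 46711998 to 46715700, minus strand), Saa1 (46740497 to 46742980, minus strand) and Saa2 (46751790 to 46754313, plus strand) are neighbours. Orm1 (chromosome 4, 63344560 to 63348163), Orm3 (63356162 to 63359511) and Orm2 (63362449 to 63365878) follow each other on the plus strand. Mt2 (94172664 to 94173568) and Mt1 (94179082 to 94180327) lie side by side on the plus strand of chromosome 8, Hp lies on the minus strand of that chromosome (109575128 to 109579172), and Lcn2 lies on the minus strand of chromosome 2 (32384633 to 32388252). All 10 are annotated as protein coding. In Saa1, 46.8% of the 31-base words of the annotated transcripts also occur in another gene, and in Saa2 44.5%, for nearly all of them in each other, and Orm1 and Orm2 share 27.5% of their words, so the split of reads between Saa1 and Saa2 and between Orm1 and Orm2 is uncertain and their sums are given too. For Saa3, Orm3, Hp, Lcn2, Mt1 and Mt2 the shared part was at most 9.42%.

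Promoter windows from RefSeq (GRCm38.p6, from 250 bases before to 50 after the gene start, written along the gene's strand) were found for 8 of the 10 genes. The serum amyloid windows are shown because they show how alike neighbours are, and those of Orm2, Mt1 and Mt2 because these genes were among those that differed most between pools. In the Saa and Orm windows capitals mark TTNNGNAA, the letters searched for C/EBP factors, and in the Mt windows they mark TGCNCNC, the core of the metal response element, each on either strand.
Saa1, chr7:46742931-46743230, minus strand: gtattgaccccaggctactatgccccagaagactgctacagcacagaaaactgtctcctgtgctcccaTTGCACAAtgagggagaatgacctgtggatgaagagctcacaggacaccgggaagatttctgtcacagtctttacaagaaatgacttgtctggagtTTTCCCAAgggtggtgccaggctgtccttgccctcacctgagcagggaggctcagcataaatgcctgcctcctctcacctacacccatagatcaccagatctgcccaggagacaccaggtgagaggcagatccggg
Saa2, chr7:46751583-46751882, plus strand: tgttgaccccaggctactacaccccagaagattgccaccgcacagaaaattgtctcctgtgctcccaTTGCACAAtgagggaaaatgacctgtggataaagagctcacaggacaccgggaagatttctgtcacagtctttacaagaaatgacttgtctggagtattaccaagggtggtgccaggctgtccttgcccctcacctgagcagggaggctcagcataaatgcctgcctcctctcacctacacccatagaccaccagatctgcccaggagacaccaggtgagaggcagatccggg
Saa3, chr7:46715627-46715926, minus strand: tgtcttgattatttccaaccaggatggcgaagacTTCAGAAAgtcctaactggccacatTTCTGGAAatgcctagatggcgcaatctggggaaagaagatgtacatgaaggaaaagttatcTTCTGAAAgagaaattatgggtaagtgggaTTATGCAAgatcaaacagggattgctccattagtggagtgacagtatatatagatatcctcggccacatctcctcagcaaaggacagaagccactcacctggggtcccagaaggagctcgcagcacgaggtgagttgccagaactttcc
Orm2, chr4:63362199-63362498, plus strand: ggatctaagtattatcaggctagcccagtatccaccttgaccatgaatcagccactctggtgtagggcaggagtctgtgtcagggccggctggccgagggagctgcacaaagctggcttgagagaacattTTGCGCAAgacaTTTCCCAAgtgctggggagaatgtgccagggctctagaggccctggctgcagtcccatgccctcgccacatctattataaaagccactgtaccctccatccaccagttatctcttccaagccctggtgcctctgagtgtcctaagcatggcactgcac
Mt1, chr8:94178839-94179138, plus strand: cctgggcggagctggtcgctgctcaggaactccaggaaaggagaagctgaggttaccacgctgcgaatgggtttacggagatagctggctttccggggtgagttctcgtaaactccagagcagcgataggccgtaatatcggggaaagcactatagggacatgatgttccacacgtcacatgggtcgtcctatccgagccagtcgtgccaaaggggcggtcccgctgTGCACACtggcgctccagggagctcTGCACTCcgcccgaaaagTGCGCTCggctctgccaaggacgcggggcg
Mt2, chr8:94172368-94172667, plus strand: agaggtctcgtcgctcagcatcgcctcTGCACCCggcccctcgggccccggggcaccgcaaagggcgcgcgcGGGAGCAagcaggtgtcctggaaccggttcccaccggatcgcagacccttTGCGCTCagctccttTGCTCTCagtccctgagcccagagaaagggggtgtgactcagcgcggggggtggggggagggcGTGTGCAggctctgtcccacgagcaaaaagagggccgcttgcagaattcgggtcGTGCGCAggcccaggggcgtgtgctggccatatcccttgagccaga
The Saa1 and Saa2 windows share a run of 65 identical bases and 66.2% of their 11-base words, whereas the Saa1 and Saa3 windows share no 11-base word. Orm2 and Orm3 share 24.5% of these words, and Mt1 and Mt2 share none. Saa3 holds 4 matches to TTNNGNAA, a number that 0.852% of all 32851 windows reach. Saa1 and Orm2 hold 2 each, which 13.6% of windows reach, and Saa2, Orm3, Lcn2 and Mt2 hold 1 each, which 40.7% reach. Mt2 holds 6 matches to TGCNCNC, a number reached in 0.225% of windows, and Mt1 holds 3, reached in 7.1%. The same letters also occur 2 times in Saa1 and in Orm3, as in 20.2% of windows, and 1 time in Saa2 and in Orm2, as in 51.0%, so neither motif is limited to one family. None of the 8 windows holds TTCNNNGAA, the letters searched for STAT factors, found in 8.3% of all windows. A match describes these letters only, and no match to one motif overlapped a match to another.

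Values are normalised read counts as deposited, and each is a whole number of reads times a constant of its library. The livers had 7294525 to 34974268 reads and the hearts 3714278 to 12949956. Summed levels of 10 hepatocyte markers were 30022 to 38709 in livers and at most 52.4 in hearts, and those of 10 cardiomyocyte markers were 32072 to 282577 in hearts. In livers the cardiomyocyte markers summed to 0.549, 162 and 123 in NZB:C57 pools 1, 2 and 3 and to 49.4 to 172 in NZB:NZB (8 of 10 at 0 in NZB:C57 pool 1), against 0.358 to 1.15 in the 6 pools of the BL/6J nucleus, where 4 to 7 of the 10 were at 0. In hearts they summed to 273442 to 282577 in NZB:C57, against 32072 to 49936 in the other genotypes. Library titles say mix for the BL/6J nucleus and rep for the NZB nucleus, so that whatever these words mean cannot be told apart from the nucleus, and NZB reads were set against a genome build made from C57BL/6, the part of which in any difference between nuclei was not tested.

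Before any comparison, 2 liver pools stood apart from the other pools of their genotype in nearly all of these genes. NZB:C57 pool 3 was at least 2-fold above the mean of pools 1 and 2 (value + 1) for all 10 genes, a height that 1.02% of all 13159 genes tested in liver reached. BL/6J:C57 pool 2 was at least 2-fold above the mean of pools 1 and 3 for 8 of the 10 genes, against 0.646% of all genes. BL/6J:NZB pool 1 was so for 5 of 10, against 0.357%. Each liver comparison is therefore given with all 12 pools and again without NZB:C57 pool 3 and BL/6J:C57 pool 2, a choice made after their values were seen. BL/6J:NZB pool 1 was kept. The 2 pools were picked by the height of these same genes, so their omission lowers the spread of these genes by choice. Adjusted p-values and counts without these pools, and the shares of all genes beside them, are descriptions only.

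Serum amyloid A transcripts differed widely between genotypes and between pools. Saa1 had 19.0, 33.8 and 512 normalised counts in NZB:C57 livers, 33.4, 33.8 and 34.8 in NZB:NZB, 741, 140.0 and 166 in BL/6J:NZB and 1587, 7941 and 1276 in BL/6J:C57. Saa2 had 5.96, 14.9 and 407 in NZB:C57, 16.3, 23.0 and 22 in NZB:NZB, 572, 53.4 and 62.5 in BL/6J:NZB and 992, 8142 and 852 in BL/6J:C57. For both genes all 3 BL/6J:C57 pools lay above every pool of the other 3 genotypes, the BL/6J:NZB pools lay above the NZB:NZB pools and overlapped NZB:C57 through its pool 3, and the ranges of both NZB nuclei overlapped. The sum of Saa1 and Saa2, which does not depend on how reads were split between them, was 24.9, 48.7 and 919 in NZB:C57, 49.6, 56.8 and 56.8 in NZB:NZB, 1313, 193 and 228 in BL/6J:NZB and 2579, 16083 and 2128 in BL/6J:C57, in the same order. Means were 188 ± 280.5 for Saa1 in NZB:C57, 34 ± 0.759 in NZB:NZB, 349 ± 339.8 in BL/6J:NZB and 3601 ± 3761 in BL/6J:C57 (SD, n = 3 each), so that the SD was close to or above the mean in every genotype except NZB:NZB. Saa3 had 9.88, 8.34 and 31 in NZB:C57, 1.28, 2.56 and 2.10 in NZB:NZB, 6.44, 4.47 and 4.10 in BL/6J:NZB and 13.2, 88.5 and 22.8 in BL/6J:C57. Its order was not that of Saa1 and Saa2, since every NZB:C57 pool lay above every pool of NZB:NZB and of BL/6J:NZB, and NZB:C57 overlapped BL/6J:C57.

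**Figure D1:**
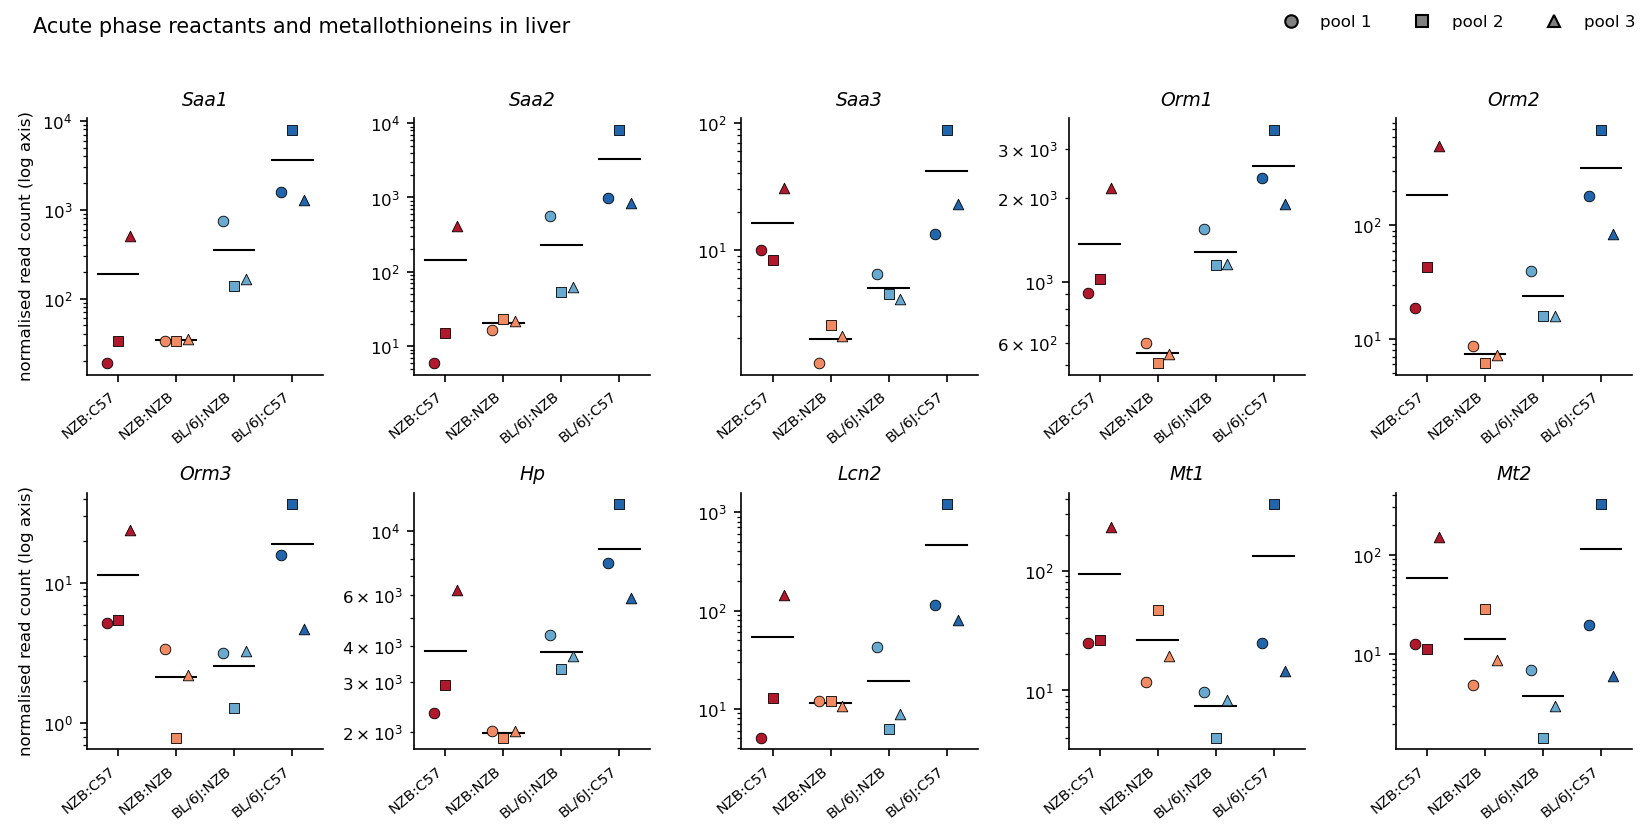
Normalised read counts (log axis) of the 10 genes in each liver pool by genotype, with circles, squares and triangles for pools 1, 2 and 3 and a line at the mean of 3 pools. NZB:C57 pool 3 and BL/6J:C57 pool 2 are the highest pools of their genotype in all 10 panels, and for Saa1 and Saa2 all BL/6J:C57 pools, from 852 upward, lie above all others.

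The orosomucoids, carrier proteins of the acute phase, followed 2 patterns. Orm1 had 908, 1023 and 2171 in NZB:C57 livers, 603, 510.5 and 550.1 in NZB:NZB, 1550.1, 1147 and 1157 in BL/6J:NZB and 2369, 3525 and 1911 in BL/6J:C57. NZB:NZB was the lowest genotype with no overlap with any other, and BL/6J:C57 lay above BL/6J:NZB, while NZB:C57 overlapped both BL/6J genotypes. Orm2 had 18.7, 43.5 and 498 in NZB:C57, 8.68, 6.19 and 7.30 in NZB:NZB, 39.5, 16.1 and 16.0 in BL/6J:NZB and 179, 691 and 83.9 in BL/6J:C57. Here too NZB:NZB was lowest without overlap, but NZB:C57 overlapped both BL/6J genotypes over most of their ranges. Orm3 was counted at 5.17, 5.43 and 23.7 in NZB:C57, 3.38, 0.786 and 2.21 in NZB:NZB, 3.17, 1.29 and 3.24 in BL/6J:NZB and 15.9, 36.3 and 4.70 in BL/6J:C57, and the ranges of both genotypes with NZB mtDNA overlapped. The sum of the 3 genes was 932, 1072 and 2692 in NZB:C57, 615, 517 and 559.6 in NZB:NZB, 1593, 1164 and 1176 in BL/6J:NZB and 2565, 4252 and 1999 in BL/6J:C57.

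Haptoglobin, which clears free haemoglobin, had 2345, 2932 and 6243 in NZB:C57 livers, 2022, 1919 and 2018 in NZB:NZB, 4368, 3322 and 3689 in BL/6J:NZB and 7773, 12385 and 5852 in BL/6J:C57. NZB:NZB was again the lowest genotype without overlap, and its pools differed by less than those of any other genotype, with a mean of 1986 ± 58.7 (SD, n = 3). Lcn2 had 5.10, 12.8 and 145 in NZB:C57, 12, 11.9 and 10.7 in NZB:NZB, 42.7, 6.27 and 8.93 in BL/6J:NZB and 114, 1201 and 79.2 in BL/6J:C57. BL/6J:C57 overlapped NZB:C57 through NZB:C57 pool 3, and the other 3 genotypes overlapped each other.

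Metallothionein values spread widely between pools of one genotype. Mt1 had 24.8, 26.6 and 231 in NZB:C57 livers, 11.8, 47.4 and 19.2 in NZB:NZB, 9.79, 4.04 and 8.35 in BL/6J:NZB and 24.8, 357 and 14.6 in BL/6J:C57. Mt2 had 12.7, 11.3 and 149 in NZB:C57, 4.94, 28.7 and 8.85 in NZB:NZB, 7, 1.46 and 3.02 in BL/6J:NZB and 19.7, 320.0 and 6.01 in BL/6J:C57. BL/6J:NZB was the lowest genotype for Mt1, with no overlap with the other 3, and for Mt2 its highest pool lay above the lowest pools of NZB:NZB and BL/6J:C57. In NZB:NZB it was pool 2 that was highest, 2.93 times the mean of the other pools for Mt1 and 3.76 times for Mt2 (value + 1), and these were the 2 of the 10 genes at least 2-fold up in that pool, against 0.205% of all genes.

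Within NZB:C57 pool 3, Saa2 stood 35.7-fold above the mean of the other pools (value + 1), rank 1 of the 12028 annotated genes ranked, followed by Saa1 at 18.8-fold, Orm2 at 15.5-fold, Lcn2 at 14.7-fold and Mt2 at 11.6-fold. Mt1 was 8.68-fold up at rank 8, Orm3 3.92-fold, Saa3 3.16-fold, Hp 2.37-fold and Orm1 2.25-fold. Within BL/6J:C57 pool 2 the metallothioneins led, with Mt2 at 23.1-fold and Mt1 at 17.3-fold, ahead of Lcn2 at 12.3-fold, Saa2 at 8.82-fold, Saa1 at 5.54-fold, Orm2 at 5.22-fold and Saa3 at 4.71-fold. Orm3 was 3.30-fold up there, Hp 1.82-fold and Orm1 1.65-fold. BL/6J:NZB pool 1 was led by Saa2 at 9.72-fold and held Lcn2 at 5.08-fold, Saa1 at 4.82-fold, Mt2 at 2.47-fold and Orm2 at 2.38-fold, but Mt1 was only 1.5-fold up, and Saa3, Orm1, Orm3 and Hp 1.25-fold to 1.41-fold. Saa1 and Saa2 thus stood ahead of both metallothioneins in NZB:C57 pool 3 and BL/6J:NZB pool 1 and behind them in BL/6J:C57 pool 2, while Saa3 stood behind both in all 3 pools. These ratios describe single pools and carry no test.

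**Figure D2:**
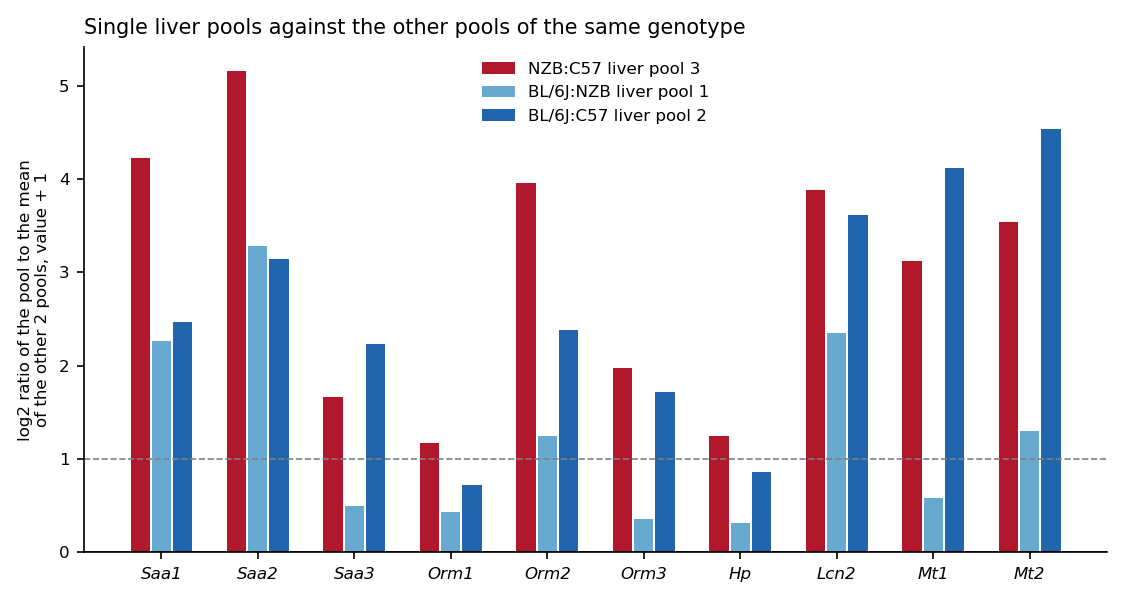
Bars give the log2 ratio of a single liver pool to the mean of the other 2 pools of its genotype, on value + 1, for each of the 10 genes, and the dashed line marks a 2-fold ratio. Bars of NZB:C57 pool 3 are highest for the serum amyloids, the orosomucoids, Hp and Lcn2 except at Saa3, while those of BL/6J:C57 pool 2 are highest at Saa3, Mt1 and Mt2.

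Other acute phase genes stood high in the same pools. Of 28 other positive acute phase proteins, 12 were at least 2-fold up in NZB:C57 pool 3 (median ratio 1.91 over the list and 0.989 over all genes) and 6 in BL/6J:C57 pool 2 (median 1.44, against 0.991), and all 6 of these were among the 12. They were Steap4, a metalloreductase, at 769 in NZB:C57 pool 3 against 148 and 143 in pools 1 and 2, and at 1538 in BL/6J:C57 pool 2 against 299 and 253 in pools 1 and 3, together with Il1rn, the interleukin-1 receptor antagonist, the endotoxin co-receptor Cd14, serum amyloid P (Apcs), lipopolysaccharide-binding protein (Lbp) and Serpina3n. Serum amyloid A4 (Saa4), a constitutive family member, was 4.08-fold up in NZB:C57 pool 3 and 1.51-fold up in BL/6J:C57 pool 2. None of 12 negative acute phase proteins was 2-fold lower or higher in either pool, with median ratios of 0.957 and 1.0, and albumin (Alb) was at 1.03 and 0.998 times the other pools.

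Among 23 genes of cytokine signalling in the table, 5 were at least 2-fold up in NZB:C57 pool 3 and 6 in BL/6J:C57 pool 2, and 5 in both: the oncostatin M receptor Osmr, the interleukin-1 receptor Il1r1, the feedback inhibitor Socs3, Nfkbiz and Cebpb, while Cebpd was 1.92-fold and 4.03-fold up. Socs3, a target of STAT3, had 22.7 in NZB:C57 pool 3 against 7.60 and 8.73 in pools 1 and 2, and 57.2 in BL/6J:C57 pool 2 against 25.1 and 14.7 in pools 1 and 3. Il1b was at 1.04 and 1.23 times the other pools and Tnf at 0.810 and 0.815 times. Of 15 metal handling genes, the zinc importer Slc39a14 alone reached 2-fold in either pool, with 513 in NZB:C57 pool 3 against 244 and 245, and it was 1.93-fold up in BL/6J:C57 pool 2, with 405 against 191 and 228. Outside the lists, and named after their values were seen, the chemokine gene Cxcl1 was 7.17-fold and Tlr2 3.99-fold up in NZB:C57 pool 3, and the ubiquitin-editing gene Tnfaip3 was 9.22-fold, Cxcl1 4.58-fold and Tlr2 4.66-fold up in BL/6J:C57 pool 2.

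**Figure D3:**
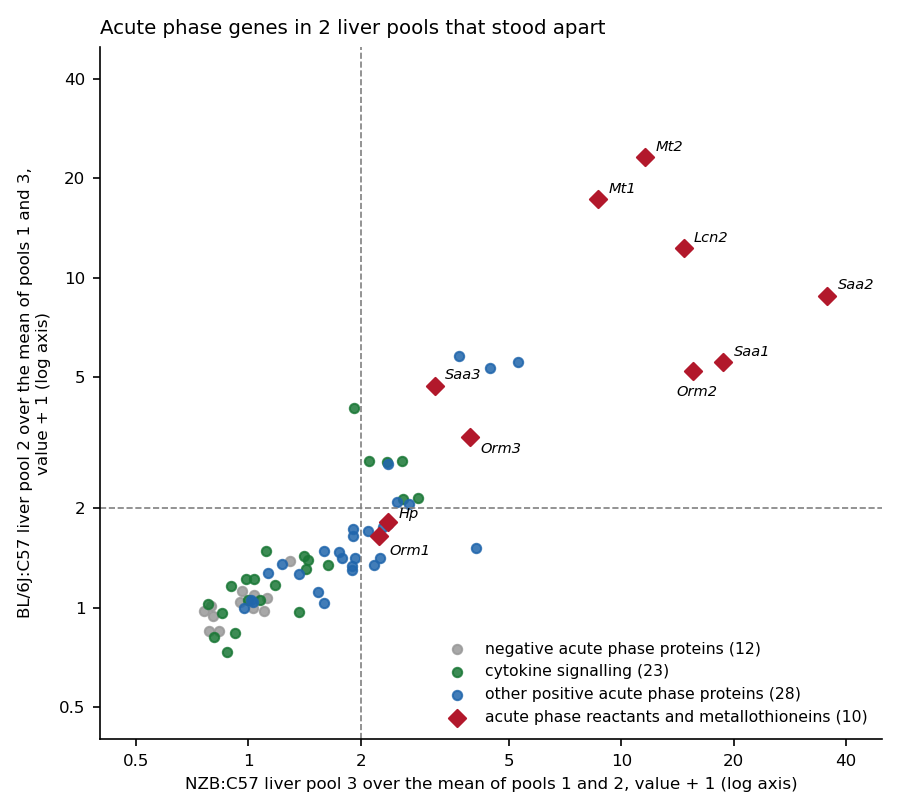
Each point is a gene, placed by its ratio in NZB:C57 liver pool 3 to the mean of pools 1 and 2 (horizontal log axis) and its ratio in BL/6J:C57 liver pool 2 to the mean of pools 1 and 3 (vertical log axis), both on value + 1, with dashed lines at 2-fold. The 10 acute phase reactants and metallothioneins lie at 2.25 or more on the horizontal axis and 1.65 or more on the vertical, and all negative acute phase proteins lie below 2 on both.

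Markers of other cells were set beside these pools. Hepatocyte markers summed to 38613 in NZB:C57 pool 3, against 38511 and 38709 in pools 1 and 2, and to 30851 in BL/6J:C57 pool 2, against 30022 and 36445 in pools 1 and 3, with none at 0. The 5 of 12 neutrophil markers in the table summed to 5.10 in NZB:C57 pool 3, against 4.15 and 4.08, but to 34.8 in BL/6J:C57 pool 2, against 13.6 and 5.69, where S100a8 had 9.37 against 2.47 and 1.11 and S100a9 had 10.3 against 2.55 and 1.27. The part of neutrophils in BL/6J:C57 pool 2 was not tested. The 14 macrophage and Kupffer cell markers had median ratios of 0.807 and 1.32 and none reached 2-fold. In whole tissue, fewer cells of a type and less RNA per cell cannot be told apart.

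Exchange of mtDNA on the BL/6J nucleus went with lower levels of all 10 genes in BL/6J:NZB than in BL/6J:C57 livers, but none passed the test after adjustment over all genes. The ranges of 9 of the 10 genes did not overlap, all lower in BL/6J:NZB, against 6.97% of all 13159 genes that were lower without overlap, and the exception was Mt2. Saa2 differed by -3.92 ± 1.29 on the log2(value + 1) scale (SE; limma adjusted p = 0.397), Lcn2 by -3.93 ± 1.10 (adjusted p = 0.333), Saa3 by -2.40 ± 0.56 (adjusted p = 0.222) and Hp by -1.13 ± 0.31 (adjusted p = 0.329). Saa1 was at -3.28, Orm1 at -0.98, Orm2 at -3.27, Orm3 at -2.16, Mt1 at -2.72 and Mt2 at -3.07, with limma adjusted p from 0.346 to 0.460. At an unadjusted p under 0.05 all 10 genes counted, against 9.76% of all genes, and after adjustment 1 gene in all, 0.00760%, was called in this comparison. With each genotype's mean taken out, these genes moved together over the 12 livers. Pearson's r to Saa2 was 0.996 for Saa1, 0.976 for Lcn2 and 0.827 for Mt1. These values include the pools that stood apart, and the split of reads between Saa1 and Saa2 is uncertain. In NZB:NZB pool 2 not all genes moved together. Mt1 was there at 2.93 times the mean of the other pools (value + 1), but Saa1 at 0.992 and Hp at 0.950 times. Because of such shared movement, counts of these genes, here and in the other liver comparisons, are not 10 independent results. Without the 2 pools that stood apart the differences were -2.46 for Saa1, -2.87 for Saa2, -1.64 ± 0.26 for Saa3 (limma adjusted p = 0.0926), -2.45 for Orm2 (0.148), -0.84 for Hp (0.148), -1.33 for Mt1 and -1.49 for Mt2, and none was called. DESeq2 on recovered reads called Saa3 alone (-3.05, adjusted p = 0.0134), and without BL/6J:C57 pool 3 limma called Orm3 alone (-2.87, adjusted p = 0.0368).

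On the NZB nucleus, 2 of the 10 genes rose in NZB:C57 over NZB:NZB livers, against 3.65% of all genes called higher. Saa3 rose by 2.34 ± 0.56 (SE; limma adjusted p = 0.0179) and Orm1 by 1.19 ± 0.28 (adjusted p = 0.0174). Orm2 (3.19 ± 0.94, adjusted p = 0.0552), Orm3 (1.76 ± 0.63, 0.125) and Hp (0.82 ± 0.31, 0.154) were also higher in every NZB:C57 pool than in any NZB:NZB pool, which makes 5 of 10 without overlap beside 12.2% of all genes, but did not pass. Saa1 (1.02), Saa2 (0.75), Lcn2 (0.88), Mt1 (1.24) and Mt2 (1.29) had adjusted p from 0.627 to 0.862. At an unadjusted p under 0.05 5 of 10 genes counted, beside 18.6% of all genes. Without the 2 pools, 3 genes were called, against 3.46% of all genes higher: Saa3 (1.78, limma adjusted p = 0.00102), Orm1 (0.80, 0.00559) and Orm2 (1.83, 0.0235), while Saa1 was at -0.41, Saa2 at -1.01 and Lcn2 at -0.45, on the other side of 0 from the values with all pools and not called. Leaving out NZB:C57 pool 3 alone ended the call of Saa3 (1.78, adjusted p = 0.0741), as did leaving out NZB:NZB pool 1 (0.0814) or pool 3 (0.0528), and the call of Orm1 was lost without NZB:NZB pool 2 (0.0695) or pool 3 (0.0574). Orm2 was called without BL/6J:C57 pool 2 (0.0388), BL/6J:C57 pool 3 (0.0410) or NZB:C57 pool 1 (0.0127), and Orm3 without BL/6J:C57 pool 3 (0.0479).

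**Figure D4:**
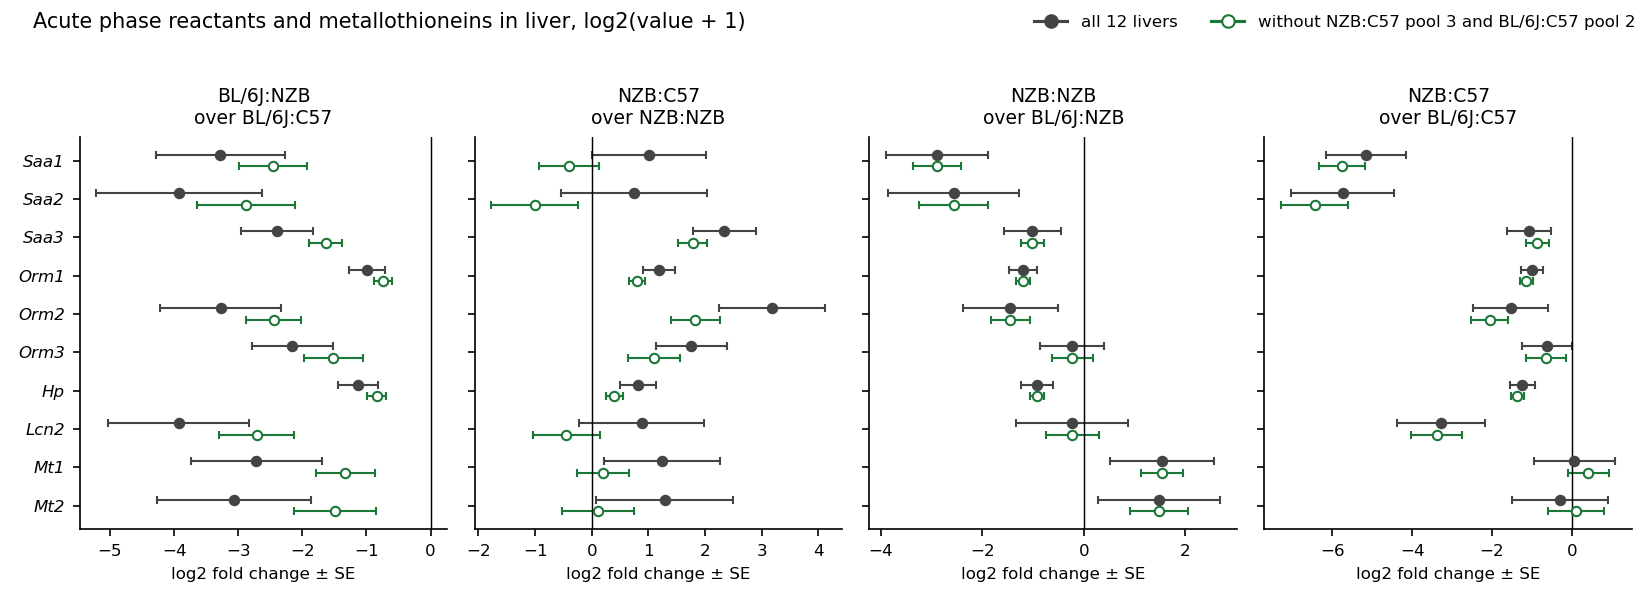
Log2 fold change of each gene in liver with its SE, for the 4 pairs of genotypes, with all 12 pools (filled) and without NZB:C57 pool 3 and BL/6J:C57 pool 2 (open). Values of BL/6J:NZB over BL/6J:C57 lie below 0 for all 10 genes in both fits, and Saa1, Saa2 and Lcn2 cross 0 between the fits for NZB:C57 over NZB:NZB.

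The mean of both differences of a conplastic line from its parental strain (NZB:C57 - NZB:NZB and BL/6J:NZB - BL/6J:C57) tests the interaction of nucleus and mtDNA. This mean asks whether the effect of the mtDNA differs between nuclei. It can be moved by 1 nucleus alone. The differences run in opposite directions of the mtDNA exchange, so an effect of mtDNA that is alike on both nuclei cancels in it. Orm2, called in neither difference, was higher with C57 mtDNA on both nuclei (3.19 and -3.27). It called none of the 10 genes in liver by limma, against 2.49% of all genes, and none of the 10 had an unadjusted p under 0.05, against 10.2%. Saa2 was at -1.59, Lcn2 at -1.52, Saa1 at -1.13, Mt2 at -0.89 and Mt1 at -0.74, and Saa3, Orm1, Orm2, Orm3 and Hp lay between -0.20 and 0.10, with limma adjusted p of 0.560 or more for all 10. Without the 2 pools none was called either, with Lcn2 at -1.58 (limma adjusted p = 0.0892), Saa1 at -1.43 (0.0879) and Saa2 at -1.94 (0.118). On recovered reads edgeR called none of the 10 and DESeq2 none of the 8 it gave an adjusted p.

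The nuclear genome was compared on each mtDNA. On NZB mtDNA, Orm1 and Hp were lower in NZB:NZB than in BL/6J:NZB livers, 2 of 10 genes beside 11.9% of all genes called lower. The difference was -1.2 ± 0.28 for Orm1 (SE; limma adjusted p = 0.00678) and -0.92 ± 0.31 for Hp (adjusted p = 0.0443). Ranges of 6 genes did not overlap and were lower in NZB:NZB (Saa1, Saa2, Saa3, Orm1, Orm2 and Hp), against 22.2% of all genes, and that of Mt1 did not overlap and was higher, against 23.1%. Saa1 differed by -2.89 ± 1.01 (adjusted p = 0.0513), Saa2 by -2.57 ± 1.29 (0.171), Saa3 by -1.02 (0.212), Orm2 by -1.45 (0.296), Orm3 by -0.23 (0.827), Lcn2 by -0.23 (0.905), Mt1 by 1.54 (0.308) and Mt2 by 1.48 (0.411). At an unadjusted p under 0.05 3 of 10 genes counted, beside 36.4% of all genes. Same-numbered liver pools of these genotypes deviated together (r = 0.172, 0.139 and 0.148), but those of heart did not (0.00910, 0.0553 and -0.0301). The labels do not say what a number marks. A block by number was fitted over all 12 livers, so it also tied pools of the other genotypes. With that block Orm1 kept its call (limma adjusted p = 0.0134) and Hp did not (0.0628), 1 of 10 genes beside 11.5% of all genes called lower. Hp also lost it without any 1 of the 6 pools compared (0.0679 to 0.133) and without NZB:C57 pool 2 (0.0508). Saa1 was called without BL/6J:C57 pool 2 (0.0390) or pool 3 (0.0468), or NZB:C57 pool 1 (0.0343) or pool 3 (0.00570).

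The 2 pools that stood apart belong to neither of these genotypes, but all 12 livers share 1 estimate of the spread, and without those pools, and without the block, 7 genes were called, with the same differences and smaller errors. Saa1 (limma adjusted p = 0.000824), Saa2 (0.0167), Saa3 (-1.02, 0.00705), Orm1 (3.58e-05), Orm2 (-1.45, 0.0159) and Hp (0.000355) were lower in NZB:NZB, beside 11.8% of all genes, and Mt1 (0.0176) was higher, beside 12.9%. An unblocked fit of only the 6 pools compared called the same 7 genes, beside 15.3% of all genes lower and 16.8% higher. With the replicate block the fit without the 2 pools also called these 7, Saa1 (0.00143), Saa2 (0.0238), Saa3 (0.0138), Orm1 (5.33e-05), Orm2 (0.0161) and Hp (0.000895) lower, beside 11.1% of all genes, and Mt1 (0.0295) higher, beside 12.4%. So did the blocked fit of the 6 pools, beside 17.4% lower and 18.4% higher. The blocked fits of fewer pools were added after the values were seen, and with the block and all 12 pools Orm1 alone was called.

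On C57 mtDNA, 5 of the 10 genes were lower in NZB:C57 than in BL/6J:C57 livers, against 14.8% of all genes called lower. The difference was -5.15 ± 1.01 for Saa1 (SE; limma adjusted p = 0.00187) and -5.74 ± 1.29 for Saa2 (adjusted p = 0.00491), and these 2 were the only ones of the 10 without overlap, beside 21.0% of all genes lower without overlap. Both passed in every alternative that gave them a value and without any single pool. It was -1.24 ± 0.31 for Hp (adjusted p = 0.00968), -0.99 ± 0.28 for Orm1 (0.0185) and -3.27 ± 1.10 for Lcn2 (0.0406). At an unadjusted p under 0.05 the same 5 genes counted, beside 39.5% of all genes. Over 9 other settings Lcn2 kept its call in 4, Orm1 in 7 and Hp in 8. Lcn2 was no longer called in 7 of 12 fits that left out 1 pool, those without BL/6J:C57 pool 2 (-2.06, adjusted p = 0.170), NZB:C57 pool 1 (0.160) or pool 2 (0.118), BL/6J:NZB pool 3 (0.0509), or NZB:NZB pool 1 (0.0520), pool 2 (0.0521) or pool 3 (0.0536). Orm1 was not called without BL/6J:C57 pool 2 (0.0808), NZB:C57 pool 1 (0.0805) or NZB:C57 pool 2 (0.0737). Saa3 (-1.07, 0.170), Orm2 (-1.53, 0.245), Orm3 (-0.63), Mt1 (0.06, 0.969) and Mt2 (-0.30, 0.879) were not called.

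Without the 2 pools, one of them on each side of this comparison, 2 pools against 2 were left. In that fit 6 genes were lower in NZB:C57, against 8.94% of all genes, after a choice of pools made by these same genes. They were Saa1 (-5.76, limma adjusted p = 2.22e-05), Saa2 (-6.45, 0.000188), Hp (-1.36, 0.000107), Orm1 (-1.14, 0.000367), Lcn2 (-3.39, 0.00303) and Orm2 (-2.06, 0.00929). Mt1 was at 0.41 (0.622) and Mt2 at 0.10 (0.938), so neither metallothionein was called in either fit. Each of the 4 liver comparisons shares pools with 2 of the others, through the genotypes they have in common.

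Markers of other cells were counted in the liver comparisons too. Of all genes, 13.1% were called higher and 14.8% lower for NZB:C57 against BL/6J:C57. The shares were 12.9% and 11.9% for NZB:NZB against BL/6J:NZB, and 3.65% and 4.44% for NZB:C57 against NZB:NZB. Marker counts near these shares say nothing of the cells. For NZB:C57 against BL/6J:C57, 6 of 14 macrophage and Kupffer cell markers were lower with 2 higher, 2 of 4 neutrophil markers tested were lower (S100a8 at -1.73, limma adjusted p = 0.00742), 4 of 10 hepatocyte markers were higher with 2 lower, and all 10 cardiomyocyte markers were higher (median 2.12). For NZB:NZB against BL/6J:NZB, 2 macrophage markers were lower, no neutrophil marker was called, 1 hepatocyte marker was higher with 1 lower, and all 10 cardiomyocyte markers were higher (median 2.92). For NZB:C57 against NZB:NZB, 3 macrophage markers were lower with 1 higher, 3 hepatocyte markers were higher, and no neutrophil or cardiomyocyte marker was called. For BL/6J:NZB against BL/6J:C57 none of these markers was called, with a median of -0.63 over the 4 neutrophil markers. The part of these cells in the liver differences was not tested.

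Lists of pathway genes, chosen by function, were counted in the same comparisons. Of all genes, 3.65% were called higher and 4.44% lower for NZB:C57 against NZB:NZB, 12.9% and 11.9% for NZB:NZB against BL/6J:NZB, and 13.1% and 14.8% for NZB:C57 against BL/6J:C57, and list counts near these shares say nothing of the list. Of 28 other positive acute phase proteins none was called in BL/6J:NZB against BL/6J:C57 (median difference -0.50, against -0.01 over all genes). NZB:C57 against NZB:NZB had 2 higher with 2 lower, NZB:NZB against BL/6J:NZB had 6 higher with 2 lower, and NZB:C57 against BL/6J:C57 had 4 higher with 5 lower (medians 0.23, 0.32 and -0.08). Hepcidin (Hamp), the iron-regulating hormone that interleukin-6 induces, had 63.7, 54.5 and 95 in NZB:C57, 47.7, 28.8 and 73.0 in NZB:NZB, 488, 443 and 648 in BL/6J:NZB and 915, 859.5 and 749 in BL/6J:C57. Both NZB nuclei lay below both BL/6J nuclei, with differences of -3.45 ± 0.27 on NZB mtDNA (SE; limma adjusted p = 5.33e-07) and -3.58 ± 0.27 on C57 mtDNA (3.35e-07). The mannose-binding lectin gene Mbl2 was higher by 1.29 (1.17e-08) in NZB:NZB than in BL/6J:NZB and by 0.85 (9.11e-07) in NZB:C57 than in BL/6J:C57. Serpina10 rose by 1.69 (0.000179) and Serpina3g was lower (-1.25, 0.000131) in NZB:C57 against NZB:NZB.

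Of 12 negative acute phase proteins, NZB:C57 against NZB:NZB had 6 higher and none lower, NZB:NZB against BL/6J:NZB had 6 higher with 3 lower, NZB:C57 against BL/6J:C57 had 6 higher and none lower, and none was called in BL/6J:NZB against BL/6J:C57. Serpina6, the corticosteroid-binding globulin, had 1596, 1576 and 1510.3 in NZB:C57, 257, 227 and 235 in NZB:NZB, 72.9, 72.2 and 89.2 in BL/6J:NZB and 95.4, 95.3 and 88.1 in BL/6J:C57. It was higher in NZB:C57 than in NZB:NZB by 2.70 ± 0.09 (limma adjusted p = 5.38e-10). Coagulation factor F12 was higher by 1.46 (3.54e-07) in NZB:C57 than in NZB:NZB, and Ahsg, a fetuin, by 1.23 (1.0e-05) in NZB:NZB than in BL/6J:NZB.

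Of 21 tested genes of cytokine signalling, 1 was higher in NZB:C57 than in NZB:NZB, 1 lower in NZB:NZB than in BL/6J:NZB, 3 higher with 3 lower for NZB:C57 against BL/6J:C57, and none was called in BL/6J:NZB against BL/6J:C57. Interleukin-1 beta (Il1b) had 0.235, 0.970 and 0.659 in NZB:C57, 2.19, 1.57 and 1.77 in NZB:NZB, 4.48, 5.16 and 2.81 in BL/6J:NZB and 6.17, 5.63 and 2.67 in BL/6J:C57, and it was lower in NZB:C57 than in BL/6J:C57 (-1.81 ± 0.27, limma adjusted p = 0.000215) and in NZB:NZB than in BL/6J:NZB (-0.83 ± 0.27, 0.0370). Among 14 tested metal handling genes the zinc importer Slc39a4 was higher in NZB:C57 than in NZB:NZB (1.23, adjusted p = 6.20e-07) and than in BL/6J:C57 (1.03, 1.59e-06), and the copper chaperone Atox1 was lower in NZB:NZB than in BL/6J:NZB (-1.21, 2.78e-05) and in NZB:C57 than in BL/6J:C57 (-1.29, 1.48e-05). The copper exporter Atp7b differed by -1.15 for NZB:C57 against NZB:NZB (2.41e-05) and was higher in NZB:NZB than in BL/6J:NZB (1.09, 1.57e-05). In the 4 comparisons, taken in the order BL/6J:NZB against BL/6J:C57, NZB:C57 against NZB:NZB, NZB:NZB against BL/6J:NZB and NZB:C57 against BL/6J:C57, the called metal handling genes were 0, 1, 3 and 2 higher and 0, 2, 2 and 2 lower.

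Across the 12 livers the genes of this group moved together, though the points share genotypes and the 2 pools that stood apart. Pearson's r of log2(value + 1) with Saa2 was 0.993 for Saa1, 0.944 for Hp, 0.929 for Lcn2, 0.894 for Orm1, 0.828 for Orm2, 0.777 for Saa3, 0.535 for Mt2 and 0.465 for Mt1. Mt1 and Mt2 had r = 0.99 with each other. Of 714 other genes with a mean of at least 10 and an SD of at least 0.5, those most like Saa2 over the 12 livers were Il1r1 (0.936), the haem-binding protein gene Hpx (0.931), Tlr2 (0.922), Ang (0.919) and Lrg1 (0.904). With each genotype's mean taken out, which leaves the differences between pools, they were Fgl1 (0.979), Hpx (0.943), Serpina10 (0.942), Cers6 (0.930) and Il1r1 (0.926), and Mt1 then had 0.827 and Mt2 0.839 with Saa2. Most like Lcn2 over the 12 livers were Cxcl1 (0.958), Steap4 (0.948), Tlr2 (0.940), Hpx (0.937) and Nfkbiz (0.930), and, with genotype means taken out, Fgl1 (0.978), Steap4 (0.966), Hpx (0.958), Il1r1 (0.955) and Apcs (0.954). Most like Mt1 were Isyna1 (0.928), Dnajc12 (0.894), Lbp (0.871), Steap4 (0.850) and Icam1 (0.850), and, with genotype means taken out, Nfkbiz (0.921), Tifa (0.920), Dnajc12 (0.913), Cyb561 (0.906) and Igfbp1 (0.902). These values describe 12 pools and carry no test.

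In the heart, 5 of the 10 genes were barely detected. Saa1, Saa2, Saa3, Orm2 and Orm3 had at most 8 reads in any heart library and did not pass the filter, which asks for 3 or more libraries at 1 or above, so 5 of the 10 genes were tested. Mt1 had 29.4, 29.5 and 51.0 in NZB:C57 hearts, 36.5, 52.9 and 37.9 in NZB:NZB, 55.9, 61.1 and 71.9 in BL/6J:NZB and 72.6, 69.1 and 64.1 in BL/6J:C57. Every pool of the NZB nuclei lay below every pool of the BL/6J nuclei, while the genotypes of each nucleus overlapped. Mt2 had 2.38, 3.22 and 8.17 in NZB:C57, 2.54, 6.09 and 3.72 in NZB:NZB, 7.75, 6.67 and 4.66 in BL/6J:NZB and 5.47, 6.68 and 8.31 in BL/6J:C57, and all 4 genotypes overlapped.

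Lcn2 was low in heart, with 4 to 27 reads per library. It had 0.509, 1.49 and 1.32 in NZB:C57 hearts, 1.11, 0.696 and 0.676 in NZB:NZB, 1.34, 2.22 and 1.93 in BL/6J:NZB and 2.28, 3.02 and 2.03 in BL/6J:C57. Hp had 3.31, 15.4 and 10.6 in NZB:C57, 4.05, 16.9 and 12.2 in NZB:NZB, 4.77, 2.70 and 6.02 in BL/6J:NZB and 4.28, 2.54 and 1.66 in BL/6J:C57. In both NZB nuclei pool 1 was the low pool, within the range of the BL/6J nuclei. Orm1 had 2 to 17 reads per library and values of 0.340 to 1.40 in NZB:C57, 0.556 to 2.61 in NZB:NZB, 0.447 to 1.15 in BL/6J:NZB and 0.182 to 0.477 in BL/6J:C57.

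**Figure D5:**
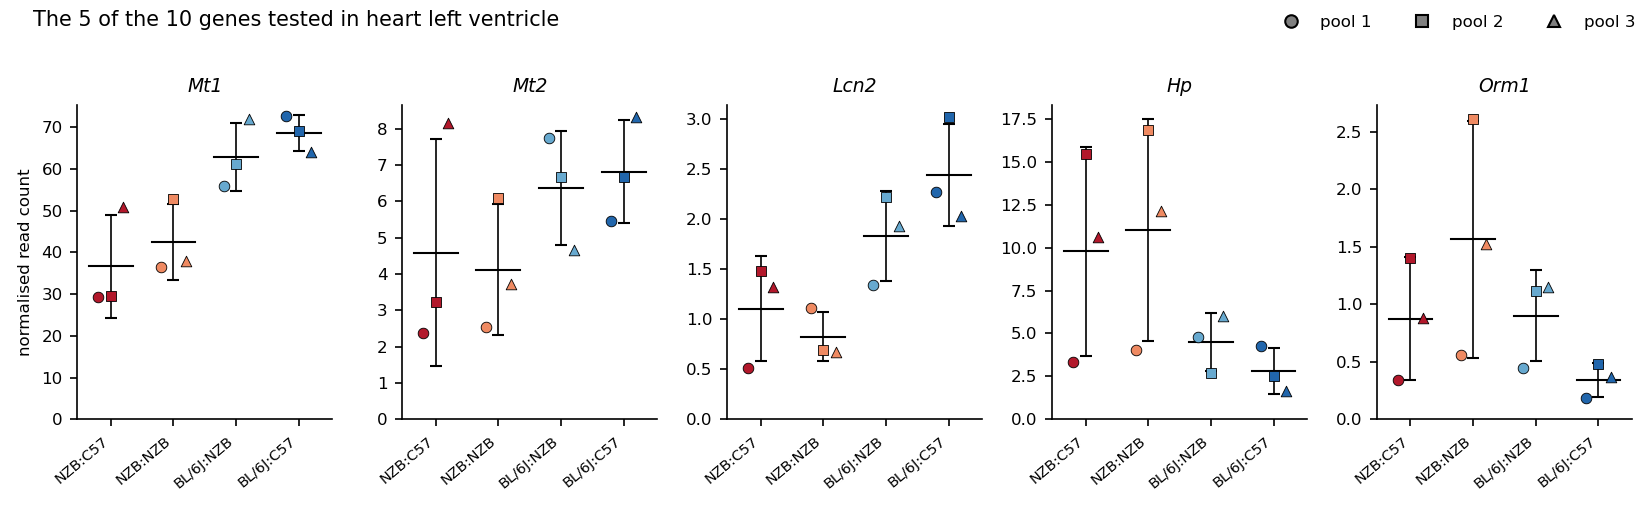
Normalised read counts of the 5 genes tested in heart, by genotype, with circles, squares and triangles for pools 1, 2 and 3, a line at the mean and bars of 1 SD (n = 3 pools). All Mt1 points of NZB:C57 and NZB:NZB, 29.4 to 52.9, lie below those of BL/6J:NZB and BL/6J:C57, 55.9 to 72.6.

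Mt1 and Lcn2 were lower in hearts of the NZB nucleus on either mtDNA, but on NZB mtDNA Lcn2 kept its call in only 4 of 8 other settings and Mt1 in 7 of 9. On NZB mtDNA, the difference was -0.57 ± 0.17 for Mt1 (SE; limma adjusted p = 0.0199) and -0.63 ± 0.22 for Lcn2 (adjusted p = 0.0444) in NZB:NZB against BL/6J:NZB, 2 of 5 genes beside 13.6% of all 13803 genes called lower, and both without overlap, as were 18.4% of all genes. On C57 mtDNA, it was -0.93 ± 0.17 for Mt1 (adjusted p = 0.000344) and -0.73 ± 0.22 for Lcn2 (0.0166) in NZB:C57 against BL/6J:C57, beside 13.1% of all genes called lower, again without overlap (20.6%), and Hp rose by 1.35 ± 0.45 (0.0278), beside 22.1% called higher, with ranges that overlapped. Mt1 on C57 mtDNA passed in all alternatives run and without any single pool. On NZB mtDNA Mt1 was not called without BL/6J:NZB pool 3 (0.0854), NZB:NZB pool 1 (0.0737) or NZB:NZB pool 3 (0.0798), Lcn2 was not called without BL/6J:C57 pool 1 (0.0564) or pool 3 (0.0505), BL/6J:NZB pool 2 (0.157) or pool 3 (0.114), or NZB:NZB pool 2 (0.114) or pool 3 (0.123), and on C57 mtDNA Lcn2 was not called without NZB:C57 pool 1 (0.105) or BL/6J:C57 pool 2 (0.0791). Hp was not called without NZB:C57 pool 2 (0.145) or pool 3 (0.0904) or BL/6J:C57 pool 2 (0.0708) or pool 3 (0.112), nor on library totals (0.90, 0.0956). Mt2 was at -0.56 (0.193) on NZB mtDNA and -0.61 (0.144) on C57 mtDNA, Orm1 at 0.37 (0.374) and 0.45 (0.265), and Hp at 0.996 (0.112) on NZB mtDNA.

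Markers of other cells were set beside these heart values, first those of hepatocytes, of which 2 of 8 tested were called higher in NZB:C57 than in BL/6J:C57 hearts and 1 in NZB:NZB than in BL/6J:NZB. The sum over all 10 hepatocyte markers was 17.7, 36.2 and 35.5 in NZB:C57, 24.1, 29.4 and 33.3 in NZB:NZB, 12.5, 15.7 and 52.4 in BL/6J:NZB and 12.6, 10.3 and 8.13 in BL/6J:C57 hearts, with 0 to 3 of the 10 at 0, and Cyp2e1 was higher in NZB:C57 than in BL/6J:C57 (1.93, limma adjusted p = 0.000314). Of the 4 neutrophil markers tested, 2 were lower in NZB:C57 than in BL/6J:C57 hearts and 2 in NZB:NZB than in BL/6J:NZB. Sums over the 5 neutrophil markers with a measured row were 5.09, 7.76 and 13.2 in NZB:C57, 5.56, 3.65 and 4.73 in NZB:NZB, 15.8, 8.58 and 7.81 in BL/6J:NZB and 13.9, 24.8 and 11.6 in BL/6J:C57, beside the Lcn2 values. Of 11 macrophage markers tested, 10 were higher for NZB:C57 against BL/6J:C57 and 8 for NZB:NZB against BL/6J:NZB. All 10 cardiomyocyte markers were higher for NZB:C57 against BL/6J:C57 (median 2.63), and 7 of 10 were lower for NZB:NZB against BL/6J:NZB (median -0.43). Of 5 adipocyte markers tested, 4 were higher for NZB:C57 against BL/6J:C57, and for NZB:NZB against BL/6J:NZB 3 were higher with 1 lower. Of all genes, 22.1% were called higher and 13.1% lower for NZB:C57 against BL/6J:C57, and 15.5% and 13.6% for NZB:NZB against BL/6J:NZB. The part of these cells in the heart values of Hp, Lcn2 and Mt1 was not tested.

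In heart, exchange of mtDNA gave no call with all pools. None of the 5 genes was called by limma in BL/6J:NZB against BL/6J:C57 (0.935% of all genes called), in NZB:C57 against NZB:NZB (15.9%) or in the mean of both (11.2%), and none had an unadjusted p under 0.05, against 17.0%, 25.3% and 22.2% of all genes. Mt1 differed by -0.13 ± 0.17 (adjusted p = 0.771) in BL/6J:NZB against BL/6J:C57 and by -0.23 ± 0.17 (0.460) in NZB:C57 against NZB:NZB. In the same order Mt2 was at -0.09 and 0.05, Lcn2 at -0.28 and 0.18, Hp at 0.53 and -0.18 and Orm1 at 0.49 and -0.41, with limma adjusted p of 0.430 or more. In the mean of both, Mt1 was at -0.18, Mt2 at -0.02, Lcn2 at -0.05, Hp at 0.18 and Orm1 at 0.04, with adjusted p of 0.428 or more. Without NZB:C57 pool 3, its highest pool, Mt1 was called lower for NZB:C57 against NZB:NZB (-0.49, adjusted p = 0.0209). On library totals it was called too (-0.92, 0.000157), with Orm1 (-0.82, 0.0337), but that scaling moved the median of all genes by -0.64 in this comparison. For the 5 genes tested in both tissues, the interaction of tissue with each comparison, heart minus liver, passed for none in BL/6J:NZB against BL/6J:C57 (0.0735% of all genes), for Orm1 in NZB:C57 against NZB:NZB (23.9%), for Orm1 and Hp in NZB:NZB against BL/6J:NZB (15.5%) and for Orm1 and Hp in NZB:C57 against BL/6J:C57 (25.8%). Orm1 had at most 17 reads in a heart library. Saa1, Saa2, Saa3, Orm2 and Orm3 were too low in heart for a test of the tissues.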

How the data were processed

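Liver and heart RNA of 4 genotypes was sequenced as 24 libraries of pooled males. The authors deposited 1 table of normalised signal for 15323 genes. How they scaled it is not given in the sources used, and Bowtie2 2.0.6, cutadapt 1.2.1, edgeR, RSEM 1.2.3 and GRCm38 are named, with no role or order, per the submitters' processing notes. All values were whole reads, within 0.01 reads, times a constant of each library, so reads were recovered for the count tests. Reads shared by near-identical genes could be split by the counting, which bears on Saa1, Saa2, Orm1 and Orm2.

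The test on these values was limma 3.58.1 with a trend on log2(value + 1), over the 12 libraries of a tissue, so that all share 1 estimate of the spread, for genes that reached 1 in 3 or more libraries, with Benjamini-Hochberg adjustment over all genes tested (13159 in liver, 13803 in heart, threshold 0.05). A fold change on this scale understates the change of low genes. The p-values measure the spread between pools. Heart and liver were compared by an interaction term over 14968 genes. Alternatives were pseudocounts of 0.1 and 5, other filters, library totals, edgeR 4.0.16 (quasi-likelihood) and DESeq2 1.42.0 on recovered reads, only the 6 libraries compared, a replicate block, and leaving out each library. The scripts were tested on simulated data.

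The rule for named genes took all 10 in every comparison in which they were tested, up to 2 called genes per list and comparison (smallest p), some of which are described, and the 5 genes most like Saa2, Lcn2 and Mt1. List genes named for single pools were chosen after their values were seen. Lists were other positive and negative acute phase proteins, cytokine signalling, metal handling, glucocorticoid targets, and markers of hepatocytes, cardiomyocytes, neutrophils, macrophages with Kupffer cells, and adipocytes. The genes and lists were chosen with earlier results of these data known. Same-numbered NZB:NZB and BL/6J:NZB livers deviated together (r = 0.172, 0.139 and 0.148), so fits with a replicate block are given beside the main, unblocked fit. Pairing there comes from the data, since the labels do not say what a number marks.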

Additional observations from a re-analysis of the deposited data

Results flagged for a closer look

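Differences between genotypes were compared between tissues, as heart minus liver on the log2(value + 1) scale with a limma interaction term, adjusted over 14968 genes, which include genes detected in 1 tissue only. Among genes tested in both tissues, the values past the threshold were -1.599 for Orm1 (limma adjusted p = 0.00756) for NZB:C57 against NZB:NZB, where 23.9% of all genes passed, 1.569 for Orm1 (0.0136) and 1.92 for Hp (0.0437) for NZB:NZB against BL/6J:NZB (15.5%), and 1.441 for Orm1 (0.0145) and 2.585 for Hp (0.00402) for NZB:C57 against BL/6J:C57 (25.8%). Orm1 had at most 17 reads in a heart library. The term also gave -2.408 for Saa3 and -3.392 for Orm2 for NZB:C57 against NZB:NZB, and 5.179 for Saa1 and 5.667 for Saa2 for NZB:C57 against BL/6J:C57. These 4 genes had at most 8 reads in any heart library and failed the heart filter, so these values are nearly the liver difference with its sign turned and are no test of a difference between tissues. None of the 10 genes passed for BL/6J:NZB against BL/6J:C57 (0.0735%).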

How the results depend on the processing

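Counts of the 10 genes called are given for the settings with larger changes, beside those of limma with all pools, and smaller changes are left out. Liver BL/6J:NZB against BL/6J:C57 had 0, DESeq2 gave 1 and leaving out 1 library 0 to 1. Liver NZB:C57 against NZB:NZB had 2, a pseudocount of 5 gave 1, no filter 0 and leaving out 1 library 0 to 4. Liver NZB:NZB against BL/6J:NZB had 2, no filter, library totals and the replicate block gave 1 each, only the 6 libraries compared and the omission of NZB:C57 pool 3 with BL/6J:C57 pool 2 (chosen after seeing the data) gave 7 each, as did both of these with the replicate block (also added after seeing the data), and leaving out 1 library 1 to 3. Liver NZB:C57 against BL/6J:C57 had 5, DESeq2 and only the 6 libraries gave 2 each, and leaving out 1 library 3 to 7. Heart NZB:C57 against NZB:NZB had 0, library totals gave 2 and leaving out 1 library 0 to 1. Heart NZB:NZB against BL/6J:NZB had 2, either pseudocount, no filter, the filter at 5 and edgeR gave 1 each, DESeq2 0 and leaving out 1 library 0 to 2. Heart NZB:C57 against BL/6J:C57 had 3, and leaving out 1 library gave 1 to 3. Over the other settings Hp kept its call there in 7 of 9 and Lcn2 in 7 of the 8 that gave it a value. The heart mean of both mtDNA differences had 0, library totals gave 1 and leaving out 1 library 0 to 1. The causes were not tested, other than fewer libraries where these were left out. Library totals moved the median of all genes by -0.22 in liver NZB:C57 against NZB:NZB, and in heart by -0.64 in that comparison, -0.53 in NZB:C57 against BL/6J:C57 and -0.30 in the mean of both mtDNA differences. In the other comparisons same-numbered pools had r from -0.176 to 0.134. Among these, heart BL/6J:NZB against BL/6J:C57 also had each pool most like that of its own number, at low r (0.0690, 0.0205 and 0.0781). Whether same-numbered pools belong together was not settled by these values. In these other comparisons the replicate block ended the call of Lcn2 in liver NZB:C57 against BL/6J:C57 (limma adjusted p = 0.0591) and no other. Only 6 libraries could not be used for the mean of both mtDNA differences, and the interaction between tissues had no alternatives. Depth limits heart Saa1, Saa2, Saa3, Orm2, Orm3, Orm1 and Lcn2, with at most 27 reads per library.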

Other observations

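Of 15 glucocorticoid targets in liver, 2 were at least 2-fold above the other pools of the genotype both in NZB:C57 pool 3 and in BL/6J:C57 pool 2, the clock gene Per1 (3.65-fold and 4.22-fold) and the cell cycle inhibitor Cdkn1a (2.04-fold and 2.33-fold), with median ratios over the list of 1.42 and 1.17. Fkbp5, which encodes a glucocorticoid receptor co-chaperone, differed by -1.07 for NZB:C57 against NZB:NZB, by 1.86 for NZB:NZB against BL/6J:NZB and by 0.98 for NZB:C57 against BL/6J:C57, all called by limma. Dusp1 was lower in NZB:NZB than in BL/6J:NZB (-1.20). Over the list, NZB:NZB against BL/6J:NZB had 1 higher with 2 lower (median -0.12), beside 12.9% and 11.9% of all genes. NZB:C57 against BL/6J:C57 had 2 higher with 2 lower (median -0.20), beside 13.1% and 14.8%. NZB:C57 against NZB:NZB had none higher with 2 lower (median -0.03), beside 3.65% and 4.44%.

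Of 19 other positive acute phase proteins tested in heart, NZB:C57 against BL/6J:C57 had 7 higher and 2 lower, and NZB:NZB against BL/6J:NZB had 3 higher and 5 lower, where 22.1% and 13.1% of all genes, and 15.5% and 13.6%, were called higher and lower. Lbp was higher in both, by 1.26 on C57 mtDNA (limma adjusted p = 3.91e-07) and by 1.58 on NZB mtDNA. Lrg1 was lower on C57 mtDNA (-1.22, limma adjusted p = 1.32e-06), and Cp was lower on NZB mtDNA (-0.75, 3.32e-07).

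Liver and heart pools of the same genotype and number were compared over 12 pairs as deviations from genotype means. Mt1 had r = 0.616 (exact permutation over 1296 arrangements, two-sided p = 0.0471, adjusted over the 10 genes 0.471) and rho = 0.573 (p = 0.0509, adjusted 0.509), and r = 0.595 without the 2 pools farthest from the median of the liver deviations. None of the 10 genes passed after adjustment, and the labels do not say that a number marks the same animals.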
